A study of Mus musculus with 6 samples.

Results

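The 44 genes described here carry glucose into the cell, break it down to lactate, or respond to the hypoxia-inducible factors (HIF), and they are followed in mouse embryonic fibroblasts (MEFs) with and without beta-actin. They were found by symbol in the gene annotation of GRCm38, and all 44 were present among the 46603 genes in the deposited count files and among the 15009 genes with counts enough to test. Of them 26 belong to glycolysis (3 glucose transporters, 15 glycolytic enzymes, 2 enzymes of fructose 2,6-bisphosphate and 6 genes of lactate and pyruvate handling) and 18 to the HIF response (4 HIF factors and oxygen sensors and 14 other targets). The list was drawn up with the difference between the genotypes already known, so the fold changes and adjusted p-values of these genes describe that difference and are no independent evidence for it.

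The study compared beta-actin knockout cells (KO) with wild-type cells (WT), 3 RNA sequencing libraries each. Both genotypes are labelled as BALB/c, from embryos 10.5 days old. Both were kept for 6 days in medium with insulin, dexamethasone, IBMX (a phosphodiesterase inhibitor) and ascorbic acid on top of high-glucose DMEM with fetal bovine serum, a mixture that drives fibroblasts toward fat cells. No library was taken before induction or without the cocktail, the oxygen setting is not given in the labels, and the labels do not say how many embryos or clones stand behind each genotype or whether the 3 libraries came from separate cultures, so p-values measure the spread between these libraries, which may be technical.

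Glycolysis splits glucose into pyruvate in the cytosol, and lactate dehydrogenase turns pyruvate into lactate, which leaves the cell through monocarboxylate transporters. HIF-1 alpha and HIF-2 alpha are transcription factors that prolyl hydroxylases (the EGLN proteins) mark for destruction while oxygen is present. When the alpha subunits persist they pair with ARNT, bind hypoxia response elements with the core letters ACGTG or GCGTG, and turn on most glycolytic enzymes together with genes of angiogenesis, pH control and mitophagy. Fat cell differentiation is known to raise glucose uptake, mostly through insulin-driven movement of the transporter GLUT4.

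Library totals ran from 26955708 to 38619711 counts. Actb, the targeted gene, stood between 1820 and 1904 CPM (counts scaled to a common library size of 1000000) in WT and at 10.4, 58.9 and 50.3 CPM in KO replicates 1, 2 and 3. The mitochondrial share of the counts was 3.57% to 3.63% for WT libraries and 3.76% to 5.41% for KO libraries. Of 10 fibroblast markers 7 rose in KO and 0 fell, with a summed level of 2991 to 3775 CPM in WT and 7658 to 10571 CPM in KO. The defining marker Thy1 was nearly absent (1 count over the WT libraries, 50 over the KO libraries), and Col1a2 had 28 and 590. Adipocyte markers were nearly absent (Adipoq 0 and 1 counts, Lep 0 in every library), with a summed level of 5.03 to 10.2 CPM in WT and 110, 8.98 and 18.1 CPM in KO replicates 1, 2 and 3, nearly all of it Fabp4. Summed levels ran from 17.7 to 35.7 CPM in WT and 20.4 to 30.4 CPM in KO for 6 macrophage markers, 3.36 to 4.69 and 2.15 to 3.68 CPM for 6 endothelial markers, 1.07 to 1.1 and 1.01 to 1.57 CPM for 5 erythroid markers (3 at 0 in every library), and 12.7 to 20.9 and 29.7 to 47.3 CPM for 6 skeletal muscle markers. Of 10 proliferation genes 3 rose in KO, Aurka by 0.63 log2, Ccna2 by 0.77 and Ccnb1 by 0.40, and 0 fell, but none of the 3 kept its call without WT replicate 1, 2 or 3. The part of these shifts in the results below was not tested. Beside the marker and proliferation counts, 13.8% of all tested genes rose and 14.5% fell, by the test given below.

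In KO cells the glycolytic chain and the HIF targets were higher, with a few steep losses. Of the 44 genes 28 rose, 4 fell and 12 were not called by edgeR's quasi-likelihood test at an adjusted p below 0.05 over all tested genes, with a median log2 fold change of 0.93 against 0.01 for all tested genes. The shares of all tested genes that rose and fell were 13.8% and 14.5%. At a change of at least 1 log2 (a doubling), 20 rose and 3 fell, against 6.68% and 8.62% of all tested genes. By CPM, every KO library lay above every WT library in 30 genes (23.8% of all tested genes) and below in 4 (25.8%). Since the list was drawn up with this contrast known, nothing is read from these shares. Scaling by library totals moved the median of all tested genes to -0.19, with 1351 genes higher and 3347 lower in place of 2074 and 2181, and left 25 of the 44 genes higher and 5 lower.

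The 4 genes that fell were Slc2a3, Slc16a3, Epas1 and Stc2, and Ldhb had the lowest fold change among those not called. In bulk RNA, fewer cells that express a gene and less RNA per cell cannot be told apart, and this holds for every value here.

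**Figure D1:**
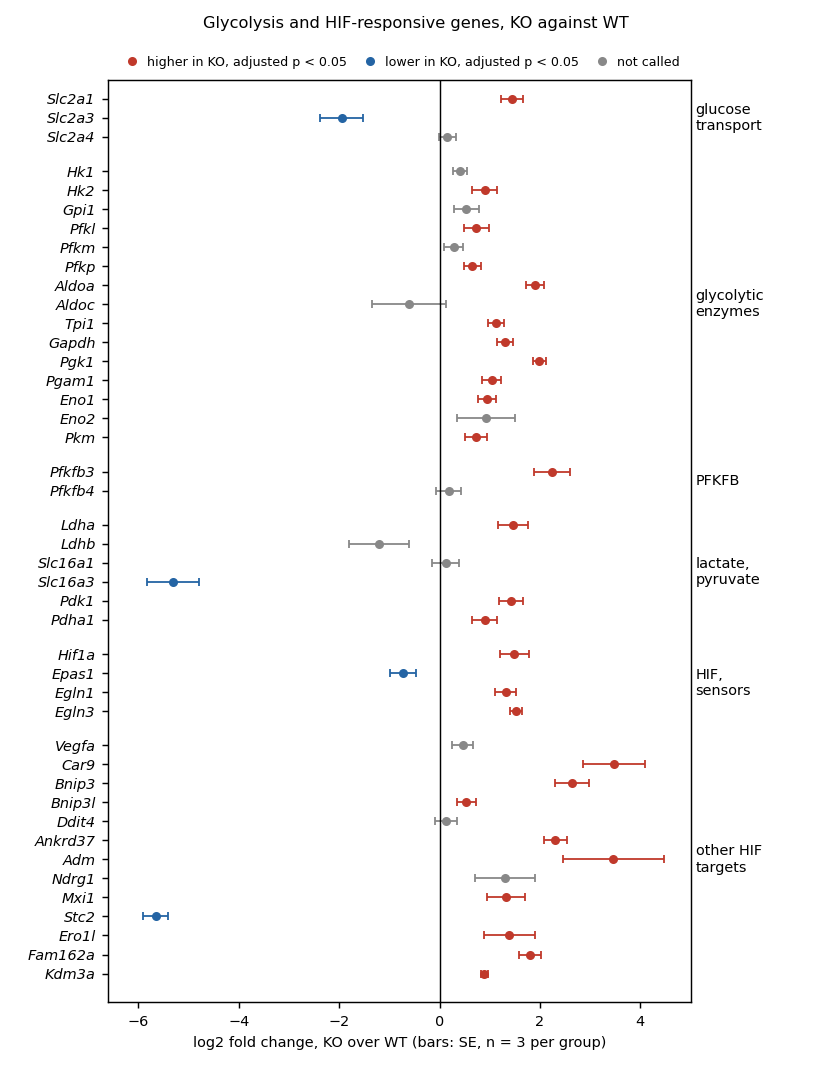
Log2 fold change of 43 genes, KO over WT, grouped by role, with bars for the standard error (n = 3 libraries per group) and colour for the call. Stc1 is left out because it had 0 counts in WT. Most points lie right of 0 and are called higher (28 of the 44 genes, Stc1 included), and Slc16a3 and Stc2 stand alone below -5.

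The promoters of these genes were searched for both core motifs of the hypoxia response element. RefSeq windows (GRCm38.p6, 250 bases before to 50 after each start) were matched for 38 of the 44 genes, and Slc2a3, Slc2a4, Epas1, Bnip3l, Ndrg1 and Stc1 had no entry. ACGTG stood on either strand in at least 1 window of 25 of the 38 genes (65.8%), against 28.8% of the 10783 tested genes with a window. GCGTG stood in 26 of 38 (68.4%), against 55.3%, and either one in 35 (92.1%), against 66.7%. The mean GC content of the windows was 62.2% for these genes and 60.6% for the tested genes. By call, ACGTG was present for 18 of 26 genes that rose, 6 of 10 that were not called and 1 of 2 that fell. A match describes the letters in the window and is not a bound site. The list was chosen for glycolysis and a known HIF response, so nothing is read from these shares.

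Stretches before a RefSeq start are shown for 4 genes that rose and 2 that fell, 5′ to 3′ on the gene's strand. ACGTG or GCGTG and their reverse complements CACGT and CACGC are in capitals (CACGTG holds 2 overlapping matches). This start is the gene's annotated start for Pgk1, Bnip3 and Stc2, and another start inside the gene for Ldha, Aldoa and Slc16a3. Another stretch of Aldoa held no match. Parts that GENCODE annotates as exon are left out. They come from chrX:106186850-106187099 for Pgk1 (plus strand), chr7:46845554-46845803 for Ldha (plus), chr7:138909520-138909756 for Bnip3 (minus), chr7:126799255-126799504 for Aldoa (minus), chr11:120948817-120949052 for Slc16a3 (plus) and chr11:31370075-31370311 for Stc2 (minus).
Pgk1: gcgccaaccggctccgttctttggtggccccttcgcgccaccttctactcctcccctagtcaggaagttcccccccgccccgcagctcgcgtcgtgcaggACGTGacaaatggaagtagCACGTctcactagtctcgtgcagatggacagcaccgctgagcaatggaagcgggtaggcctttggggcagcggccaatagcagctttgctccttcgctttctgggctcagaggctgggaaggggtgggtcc
Ldha: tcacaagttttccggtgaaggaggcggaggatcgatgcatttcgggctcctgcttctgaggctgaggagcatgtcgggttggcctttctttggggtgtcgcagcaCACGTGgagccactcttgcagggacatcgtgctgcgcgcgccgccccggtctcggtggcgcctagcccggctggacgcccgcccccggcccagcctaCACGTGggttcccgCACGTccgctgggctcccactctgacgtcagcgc
Bnip3: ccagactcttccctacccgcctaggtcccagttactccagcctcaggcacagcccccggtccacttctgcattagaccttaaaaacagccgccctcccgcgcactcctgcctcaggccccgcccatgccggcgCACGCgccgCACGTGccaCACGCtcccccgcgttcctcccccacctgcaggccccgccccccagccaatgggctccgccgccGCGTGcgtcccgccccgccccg
Aldoa: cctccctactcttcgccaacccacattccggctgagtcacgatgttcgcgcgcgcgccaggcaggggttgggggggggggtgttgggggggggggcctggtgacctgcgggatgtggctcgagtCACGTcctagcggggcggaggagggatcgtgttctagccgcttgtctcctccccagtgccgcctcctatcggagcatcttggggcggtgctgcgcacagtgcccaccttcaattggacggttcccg
Slc16a3: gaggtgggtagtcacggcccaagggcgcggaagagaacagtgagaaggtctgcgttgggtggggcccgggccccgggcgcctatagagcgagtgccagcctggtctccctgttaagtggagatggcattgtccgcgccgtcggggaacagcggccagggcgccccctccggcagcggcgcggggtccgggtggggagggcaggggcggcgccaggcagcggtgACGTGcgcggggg
Stc2: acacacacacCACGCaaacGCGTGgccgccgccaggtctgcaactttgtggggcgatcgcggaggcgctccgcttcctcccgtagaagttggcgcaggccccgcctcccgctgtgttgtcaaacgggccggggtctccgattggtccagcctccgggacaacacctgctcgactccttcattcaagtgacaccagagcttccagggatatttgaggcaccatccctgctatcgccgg
These stretches were picked among those with matches and do not stand for the genes that rose, of which Tpi1, Pkm, Car9 and Kdm3a hold no match in such stretches.

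Glucose enters fibroblasts mainly through GLUT1, encoded by Slc2a1. Slc2a1 (ENSMUSG00000028645, chromosome 4, 119108711 to 119137983, GRCm38) stood at 88.9, 90.5 and 87.9 CPM in WT and 294, 179 and 256 CPM in KO. The WT libraries were nearly level, and even the lowest KO library was above all of them. Slc2a1 rose by 1.45 log2 (SE 0.21, adjusted p = 0.0014), 2.72-fold. Slc2a3, for the high-affinity neuronal transporter GLUT3, was scarce at 1.01, 0.597 and 1.59 CPM in WT and fell to 0.376, 0.237 and 0.218 CPM in KO (KO over WT, log2: -1.95, SE 0.43, adjusted p = 0.0186). Leaving out WT replicate 1 or 3 took this call away (adjusted p = 0.0566 and 0.0637), as did leaving out KO replicate 2 or 3 (0.0555 and 0.0673). Slc2a3 also shares near-identical stretches with 2 other genes (15850 counts over all libraries, against 124 for Slc2a3). The longest is 178 bases at 97.2% identity, with Snf8, so the low counts of Slc2a3 are uncertain. Slc2a4, for the insulin-responsive GLUT4 of fat and muscle, stayed low at 8.18 ± 1.60 CPM (SD, n = 3) in WT and 9.13 ± 0.534 CPM in KO, with a log2 fold change of 0.16 (SE 0.16, adjusted p = 0.582). Per kilobase of exon, Slc2a1 made up 91.1% ± 1.83 of the 3 transporters' transcripts in WT and 96.1% ± 1.14 in KO.

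Enzymes from both the early and the late steps rose. Of the 15 enzyme genes 10 rose (13.8% of all tested genes), 0 fell (14.5%) and 5 were not called. Their summed share of all counts was 0.699%, 0.645% and 0.622% in WT and 1.05%, 1.18% and 1.47% in KO, 1.89-fold higher by the means. Among the 10 that rose, the fold changes were highest for Pgk1 and Aldoa, in the middle of the chain, and lowest for Pfkp, Pkm and Pfkl.

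Pgk1 encodes phosphoglycerate kinase, the first enzyme of the chain to yield ATP. Pgk1 (ENSMUSG00000062070, chromosome X, 106187100 to 106203699) stood at 527, 441 and 463 CPM in WT and 1898, 1641 and 2142 CPM in KO. The groups lay far apart with little spread, and the gene rose by 1.99 log2 (SE 0.13, adjusted p = 0.000221). Aldoa, for the aldolase that splits the 6-carbon sugar (ENSMUSG00000030695, chromosome 7, 126795234 to 126800751), stood at 364, 316 and 299 CPM in WT and 1460, 994 and 1198 CPM in KO. It rose by 1.90 log2 (SE 0.18, adjusted p = 0.000403) 3.73-fold. The paralogue Aldoc stood under 1.30 CPM in every library and was not called (log2 fold change -0.60, SE 0.73, adjusted p = 0.462).

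Gapdh, for the dehydrogenase that reduces NAD+, and often taken as a reference gene, was at 1075, 1018 and 906 CPM in WT and 2109, 2297 and 2992 CPM in KO. All KO libraries lay above all WT libraries, with a rise of 1.30 log2 (SE 0.17, adjusted p = 0.00186). The mouse genome holds many copies of it: 101 other genes in the files share at least 100 bases at 97% identity, and their summed level went from 262 to 459 CPM. Gapdh and these copies together went from 1261 ± 104 to 2926 ± 557 CPM.

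Tpi1, for triose phosphate isomerase, stood at 569, 479 and 493 CPM in WT and 1009, 1017 and 1334 CPM in KO and rose by 1.13 log2 (SE 0.15, adjusted p = 0.00228). Pgam1, for phosphoglycerate mutase, averaged 556 ± 36.4 CPM in WT and 1140 ± 238 CPM in KO, a rise of 1.04 log2 (SE 0.18, adjusted p = 0.00478). Eno1, the main enolase, stood at 734, 675 and 644 CPM in WT and 1062, 1271 and 1604 CPM in KO and rose by 0.94 log2 (SE 0.18, adjusted p = 0.00704). These 3 enzymes were higher in all KO libraries, with KO replicate 3 the highest in each. Eno1b and 2 other genes carry near-identical sequence to Eno1. Summed with them, Eno1 went from 948 ± 57.6 to 1815 ± 389 CPM, and the direction was the same with and without the copies. The neuronal enolase Eno2 was at 48.1, 47.1 and 53.4 CPM in WT and 172, 44.8 and 65.8 CPM in KO, by far the highest in KO replicate 1 and not called (0.93 log2, SE 0.58, adjusted p = 0.157). With KO replicate 1 left out the difference was 0.16 log2 (adjusted p = 0.439), and without KO replicate 2 it passed (1.27 log2, 0.0369).

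At the entry to the chain, Hk2, the inducible hexokinase that traps glucose in the cell, stood at 33.0, 28.7 and 35.6 CPM in WT and 60.7, 44.4 and 76.4 CPM in KO and rose by 0.90 log2 (SE 0.24, adjusted p = 0.0151). Hk1, the housekeeping hexokinase, stood at 133 ± 4.52 CPM in WT and 177 ± 27.5 CPM in KO and missed the threshold (log2 fold change 0.41, SE 0.14, adjusted p = 0.0576). Every KO library was nonetheless above every WT library for both genes. The share of Hk2 in hexokinase transcripts per kilobase was 26.3%, 23.0% and 28.4% in WT and 30.4%, 30.3% and 37.0% in KO, with no overlap. Gpi1, for glucose-6-phosphate isomerase, was not called (0.53 log2, SE 0.25, adjusted p = 0.0876). Without WT replicates 1 or 2 Hk2 lost its call (adjusted p = 0.0597 and 0.0725), and without KO replicate 2 Hk1 and Gpi1 gained one (0.0227 and 0.0276), as did Hk1 with DESeq2 (0.0297).

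Phosphofructokinase is the committed, tightly regulated step. Its liver form Pfkl stood at 254, 218 and 249 CPM in WT and 282, 416 and 502 CPM in KO, with KO replicate 1 close to WT (log2 fold change 0.74, SE 0.25, adjusted p = 0.0343). The platelet form Pfkp averaged 79.4 ± 6.10 CPM in WT and 125 ± 22.8 CPM in KO, a rise of 0.66 log2 (SE 0.17, adjusted p = 0.0173). It shares 748 exon bases with Pitrm1 on the opposite strand, which the library kit cannot tell apart, and Pitrm1 itself was at 155 and 161 CPM. The muscle form Pfkm was not called (0.28 log2, SE 0.19, adjusted p = 0.253). At the last step Pkm, for pyruvate kinase of the M type, stood at 1875, 1702 and 1509 CPM in WT and 2130, 2792 and 3447 CPM in KO (KO over WT, log2: 0.72, SE 0.22, adjusted p = 0.0357). Its M1 and M2 splice forms were not separated in gene counts. Pfkl and Pkm were the least steady calls among the enzymes. Pfkl lost its call without WT replicate 1, 2 or 3 (adjusted p = 0.095, 0.136 and 0.0945) or KO replicate 2 or 3 (0.0698 and 0.0916), and Pkm in the same 5 fits (0.0828, 0.125, 0.121, 0.0652 and 0.105). Neither was called with library totals (0.107 for Pfkl, 0.097 for Pkm) or upper-quartile scaling (0.0536 and 0.0511). Pfkp lost it without WT replicate 2 or 3 or KO replicate 3 (0.073, 0.0735 and 0.0513).

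Levels can be compared between genes only per length, here as TPM (transcripts out of 1000000, by length) over the union of annotated exons. In WT the order was Pkm (1117 ± 49.7 TPM), Pgam1 (926 ± 15.9), Gapdh (798 ± 19.9), Pgk1 (702 ± 48.3), Tpi1 (616 ± 38.1), Eno1 (420 ± 6.47) and Aldoa (370 ± 16.8). In KO it was Pgk1 (2303 ± 320 TPM), Gapdh (1634 ± 352), Pgam1 (1577 ± 378), Pkm (1531 ± 407), Aldoa (1136 ± 175), Tpi1 (1113 ± 210) and Eno1 (669 ± 159). Pgk1 moved from the fourth place to the first, and Aldoa from the last to the fifth. The order between genes rests on these exon lengths (4133 bases for Gapdh, 5001 for Pkm, 2244 for Pgk1, 1982 for Pgam1). The union of exons can be longer than the transcript made, by a different amount for each gene. It also leaves out the near-identical copies of Gapdh and Eno1, so the places are uncertain. In KO the levels of Gapdh, Pgam1 and Pkm, and of Aldoa and Tpi1, differ by less than their SD.

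**Figure D2:**
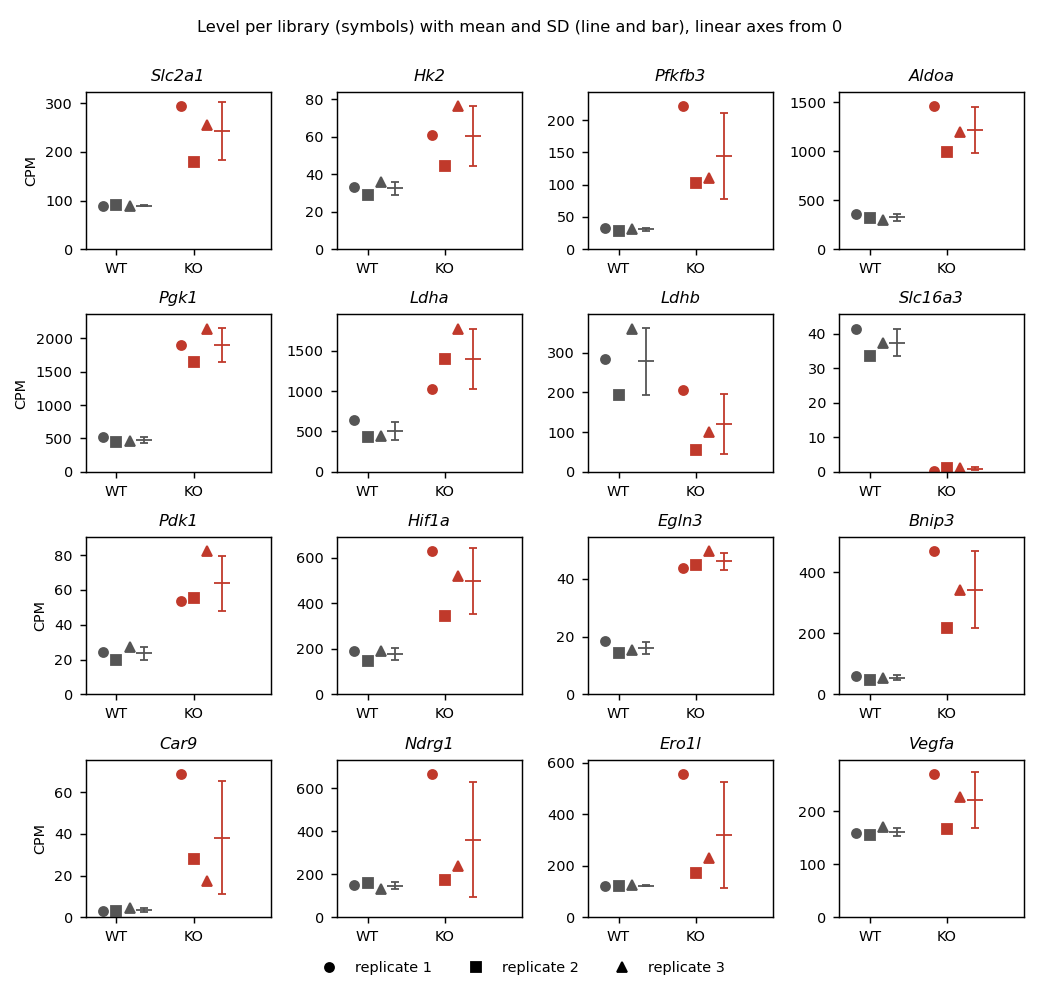
Level in CPM (linear axes from 0) of 16 genes in each library, with circles, squares and triangles for replicates 1, 2 and 3 and a line with bars for the mean and SD (n = 3). KO replicate 1 stands apart for Ndrg1, Ero1l and Pfkfb3, while for Ldha it is the lowest KO library, and Slc16a3 drops to near 0 in all KO libraries.

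The bifunctional PFKFB enzymes set the level of fructose 2,6-bisphosphate, the strongest activator of phosphofructokinase. Pfkfb3, the form with the highest kinase over phosphatase activity (ENSMUSG00000026773, chromosome 2, 11471433 to 11554077), stood at 32.3, 28.1 and 31.6 CPM in WT and 222, 103 and 110 CPM in KO. It rose by 2.24 log2 (SE 0.36, adjusted p = 0.00167), 4.73-fold, more than any of the 15 enzyme genes of the chain. Pfkfb4 stood at 18.7, 22.3 and 18.0 CPM in WT and 15.8, 25.4 and 25.5 CPM in KO, which overlap (0.18 log2, SE 0.25, adjusted p = 0.557). Pfkfb4 passed without KO replicate 1 (0.37 log2, adjusted p = 0.0376). The share of Pfkfb3 in the pair per kilobase went from 50.2% ± 4.70 to 78.7% ± 9.86.

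Among the 6 genes of lactate and pyruvate handling 3 rose (13.8% of all tested genes), 1 fell (14.5%) and 2 were not called. Ldha encodes the subunit of lactate dehydrogenase that favours lactate formation. Ldha (ENSMUSG00000063229, chromosome 7, 46841475 to 46855627) stood at 642, 432 and 446 CPM in WT and 1026, 1392 and 1774 CPM in KO, a rise of 1.46 log2 (SE 0.29, adjusted p = 0.0046). Ldhb, for the heart subunit that favours the return to pyruvate, stood at 283, 193 and 361 CPM in WT and 205, 56.3 and 102 CPM in KO. KO replicate 1 lay within the WT range, and the difference of -1.20 log2 (SE 0.60) was not called (adjusted p = 0.0821). Without KO replicate 1 Ldhb was called (-1.82 log2, adjusted p = 0.00294), as it was with library totals (-1.44, 0.0378), no filter (-1.22, 0.0206) and DESeq2 (-1.19, 0.0228). The ratio within each library needs no scaling between libraries. Per kilobase, Ldha made up 51.8%, 51.6% and 36.9% of the 2 subunits' transcripts in WT. In KO it made up 70.3%, 92.1% and 89.2%, with no overlap. The size of this share depends on the exon lengths used (3310 bases for Ldha, 1570 for Ldhb). By counts alone, Ldha averaged 64.6% of the pair in WT and 91.3% in KO.

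A lactate exporter gene went the other way. Slc16a3, for the transporter MCT4, is a known HIF target that exports lactate from glycolytic cells. Slc16a3 (ENSMUSG00000025161, chromosome 11, 120948480 to 120960868) stood at 41.5, 33.5 and 37.4 CPM in WT and 0.376, 1.19 and 1.20 CPM in KO, 3496 and 94 counts in all. It fell by 5.31 log2 (SE 0.51, adjusted p = 0.000129), 39.7-fold lower in KO, in every KO library. Slc16a1, for the broadly expressed MCT1, stood at 130, 119 and 135 CPM in WT and 132, 99.8 and 187 CPM in KO and was not called (0.12 log2, SE 0.27, adjusted p = 0.697). The share of Slc16a3 in the pair per kilobase went from 19.6% ± 1.21 to 0.582% ± 0.374. Outside the list, Slc16a7, for the pyruvate-preferring MCT2, rose by 2.18 log2 to 5.24 ± 3.10 CPM (adjusted p = 0.0157), a call lost without WT replicate 1 or 2 (0.0656 and 0.0662).

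Pdk1 phosphorylates and so restrains pyruvate dehydrogenase. It stood at 24.3, 19.7 and 27.1 CPM in WT and 53.7, 55.6 and 82.2 CPM in KO and rose by 1.43 log2 (SE 0.24, adjusted p = 0.00239). Pdha1, the catalytic subunit that this kinase acts on, stood at 120, 101 and 109 CPM in WT and 274, 162 and 180 CPM in KO (KO over WT, log2: 0.90, SE 0.24, adjusted p = 0.0155). For both genes every KO library was above every WT library. Pdha1 lost its call without WT replicate 2 or 3 (adjusted p = 0.0722 and 0.063). In a list of 12 other genes of pyruvate entry to mitochondria 3 rose, 1 fell and 8 were not called. Of all tested genes 13.8% rose and 14.5% fell. The opposing phosphatase Pdp1 rose by 1.50 log2 (adjusted p = 0.00255), the kinase Pdk3 by 0.73 (adjusted p = 0.00351), and Pdhx, a structural subunit of the complex, fell by 0.62 (adjusted p = 0.0261), which was lost without WT replicate 1, 2 or 3 (0.0985, 0.0864 and 0.0536).

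**Figure D3:**
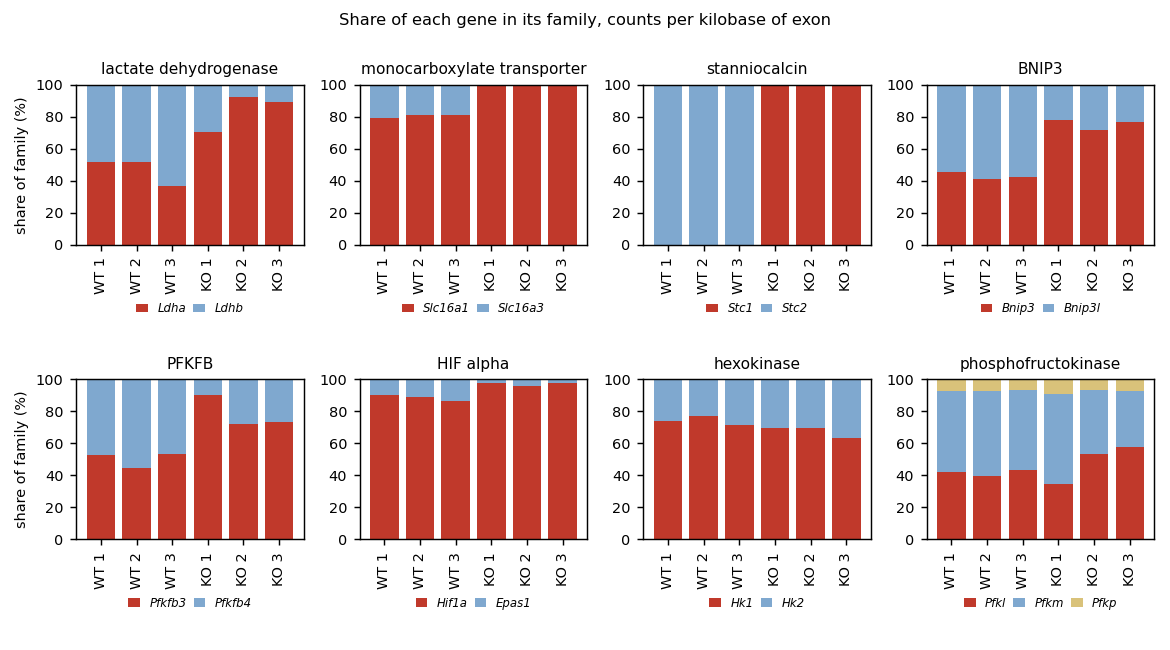
Share of each gene in its family per library, in percent of counts per kilobase of exon, for 8 families. Lactate dehydrogenase, monocarboxylate transporter, stanniocalcin, BNIP3, PFKFB and HIF alpha shares separate all WT from all KO libraries, as do hexokinase shares by less, while phosphofructokinase shares overlap.

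The HIF factors moved in opposite directions. Hif1a (ENSMUSG00000021109, chromosome 12, 73901375 to 73947530) stood at 193, 147 and 192 CPM in WT and 629, 343 and 522 CPM in KO and rose by 1.49 log2 (SE 0.29, adjusted p = 0.00339). Epas1, for HIF-2 alpha, stood at 20.2, 17.3 and 29.0 CPM in WT and 14.3, 14.8 and 10.9 CPM in KO and fell by 0.73 log2 (SE 0.26, adjusted p = 0.0481). Epas1 sat at the threshold and lost its call without WT replicate 1, 2 or 3 (adjusted p = 0.0943, 0.0528 and 0.145), without KO replicate 2 or 3 (0.0674 and 0.134) and with limma-voom (0.0543). The share of Epas1 in the pair per kilobase was 9.94%, 11.1% and 13.7% in WT and 2.35%, 4.34% and 2.16% in KO, with no overlap. HIF is controlled mostly at the level of protein stability, which RNA does not report.

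Both oxygen sensors on the list, which are themselves HIF targets, rose. Egln3 stood at 18.3, 14.2 and 15.5 CPM in WT and 43.8, 44.7 and 49.4 CPM in KO and rose by 1.52 log2 (SE 0.12, adjusted p = 0.000403), with tight values in both groups. Egln1, the main HIF prolyl hydroxylase, stood at 64.7, 66.1 and 60.5 CPM in WT and 191, 118 and 167 CPM in KO and rose by 1.31 log2 (SE 0.21, adjusted p = 0.00184). In a list of 9 other genes of the HIF machinery 2 rose, 1 fell and 6 were not called. For all tested genes the shares that rose and fell were 13.8% and 14.5%. Arnt2, a partner of HIF alpha best known from neurons, fell by 1.74 log2 from 58.8 ± 1.08 to 17.6 ± 1.38 CPM (adjusted p = 0.000114). Hif3a, which includes inhibitory forms, rose by 4.51 log2 from 10 to 237 counts (adjusted p = 0.00175). Arnt itself rose by 0.88 log2 (adjusted p = 0.0245), a call lost without WT replicate 1, 2 or 3 (0.0896, 0.0995 and 0.0645).

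Of the 14 other HIF targets 10 rose (13.8% of all tested genes), 1 fell (14.5%) and 3 were not called, with a median of 1.36 log2. The number that rose was 6 without WT replicate 1, 2 or 3. Bnip3, a mitochondrial protein that marks mitochondria for mitophagy (ENSMUSG00000078566, chromosome 7, 138890836 to 138909519), stood at 62.1, 47.8 and 55.5 CPM in WT and 469, 216 and 341 CPM in KO. Every KO library was at least 3 times the highest WT library, and Bnip3 rose by 2.63 log2 (SE 0.34, adjusted p = 0.000675). Its paralogue Bnip3l averaged 125 ± 6.61 CPM in WT and 181 ± 39.5 CPM in KO, a rise of 0.54 log2 (SE 0.18, adjusted p = 0.0457). Bnip3l lost this call without WT replicate 1, 2 or 3 (adjusted p = 0.122, 0.164 and 0.109) or KO replicate 3 (0.0813), with library totals (0.126) and with upper-quartile scaling (0.0522). Bnip3 thereby went from 42.8% ± 2.35 to 75.6% ± 3.50 of the pair per kilobase.

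Car9, for the carbonic anhydrase that regulates pH at the cell surface (ENSMUSG00000028463, chromosome 4, 43506966 to 43513729), stood at 2.95, 2.80 and 4.52 CPM in WT and 68.8, 27.8 and 17.6 CPM in KO. It rose by 3.47 log2 (SE 0.62, adjusted p = 0.00292), or 2.73 without KO replicate 1. Gm12454 overlaps Car9 on the opposite strand over 214 exon bases and went from 2.07 to 13.7 CPM, and reads of the overlap cannot be assigned to either strand. Adm, for the vasodilator adrenomedullin, stood at 0.849, 0.660 and 2.03 CPM in WT and 29.6, 4.27 and 5.09 CPM in KO (KO over WT, log2: 3.46, SE 1.00, adjusted p = 0.0222). It was 2.00 log2 without KO replicate 1 (adjusted p = 0.00648) and was not called without WT replicate 1, 2 or 3 (0.0936, 0.0883 and 0.0501) or with limma-voom (0.0518). Ankrd37, a small ankyrin-repeat protein, was scarce but averaged 1.15 ± 0.152 CPM in WT and 5.70 ± 1.47 CPM in KO, a rise of 2.31 log2 (SE 0.23, adjusted p = 0.00124). Part of its exons overlap Lrp2bp and, over 57 bases, Ufsp2, both on the opposite strand. Ufsp2 went from 48.8 to 86.9 CPM, the log2 ratio of the summed levels of Ankrd37 and Ufsp2 was 0.89, and how many reads of the overlap belong to Ankrd37 cannot be told apart.

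Fam162a, a mitochondrial protein tied to hypoxic cell death, stood at 97.3, 65.7 and 70.4 CPM in WT and 277, 223 and 314 CPM in KO and rose by 1.80 log2 (SE 0.23, adjusted p = 0.000765). Kdm3a, a histone H3K9 demethylase, averaged 50.9 ± 3.07 CPM in WT and 94.2 ± 5.59 CPM in KO, a rise of 0.89 log2 (SE 0.07, adjusted p = 0.00111), with the smallest standard error of the 44 genes. For both, every KO library was above every WT library. Mxi1, an antagonist of MYC, stood at 35.3, 36.1 and 41.9 CPM in WT and 148, 66.6 and 70.1 CPM in KO (1.33 log2, SE 0.38, adjusted p = 0.0158). Ero1l, the ER oxidase that drives disulfide bond formation, stood at 121, 121 and 124 CPM in WT and 558, 172 and 231 CPM in KO (1.39 log2, SE 0.51, adjusted p = 0.036). Both were called without KO replicate 1, at 0.86 log2 (adjusted p = 0.000425) and 0.73 log2 (0.00265). Without WT replicate 1, 2 or 3 neither was called (adjusted p = 0.0702, 0.0666 and 0.0543 for Mxi1, and 0.115, 0.113 and 0.114 for Ero1l). Ero1l shares short near-identical stretches with 3 other genes (16156 counts over all libraries, against 40544 for Ero1l). The longest is 133 bases at 97.7% identity, with Tbk1. Fam162a shares 168 exon bases with Wdr5b on the opposite strand (761 counts over all libraries, against 33756 for Fam162a). The effect of these stretches was not tested.

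The stanniocalcins, secreted glycoproteins that act on calcium and phosphate handling, exchanged places. Stc1 had 0 counts in each WT library and stood at 7.21, 5.46 and 13.2 CPM in KO, 863 counts in all. Taking 3 counts per WT library as the upper limit for a library at 0, it was at least 89.4-fold higher in KO (adjusted p = 0.000824). Stc2 (ENSMUSG00000020303, chromosome 11) stood at 2.33, 4.05 and 3.55 CPM in WT and 0.0751, 0.0593 and 0.0544 CPM in KO, 308 and 6 counts in all. It fell by 5.65 log2 (SE 0.25, adjusted p = 0.000177). Neither was abundant in the genotype that expressed it.

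The last 3 targets were not called, though they are often used as readouts of HIF. Vegfa, the main angiogenic factor, stood at 159, 155 and 171 CPM in WT and 271, 167 and 228 CPM in KO, with KO replicate 2 inside the WT range (0.46 log2, SE 0.21, adjusted p = 0.0935). It passed without KO replicate 2 (0.63 log2, adjusted p = 0.0192). Ddit4, for REDD1, an inhibitor of mTORC1 that glucocorticoids also induce, stood at 309, 306 and 239 CPM in WT and 250, 296 and 390 CPM in KO (0.13 log2, SE 0.22, adjusted p = 0.636). Ndrg1, a stress-induced gene of membrane traffic, stood at 151, 158 and 129 CPM in WT and 667, 173 and 239 CPM in KO (1.30 log2, SE 0.59, adjusted p = 0.0716). By CPM all KO libraries of Ndrg1 were above WT, but by TPM KO replicate 2 (73.6) lay below WT replicate 2 (79.0). The size of the difference rested on KO replicate 1, and without it the difference was 0.50 log2 (adjusted p = 0.0294). Ndrg1 was also called without KO replicate 2 (1.64 log2, 0.0203), with no filter (1.29, 0.0175) and with DESeq2 (1.31, 0.013).

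The KO libraries differed among themselves, and KO replicate 1 stood apart for several HIF targets. KO replicate 1 was the highest KO library for 10 of the 14 other HIF targets and the lowest for 1, while it was the highest for 6 of the 15 enzyme genes and the lowest for 7. For all tested genes those shares were 43.9% and 44.4%. Adm was 6.33 times as high in KO replicate 1 as in the mean of KO replicates 2 and 3, Ndrg1 3.24 times, Eno2 3.11, Car9 3.04, Ero1l 2.76, Ldhb 2.60, Mxi1 2.16 and Pfkfb3 2.08. At the other end stood Aldoc (0.188 times), Slc16a3 (0.315), Pfkl (0.615), Pfkfb4 (0.622), Ldha (0.648), Pkm (0.683), Pgam1 (0.720) and Ddit4 (0.728). The summed level of the 14 other targets was 1026 to 1118 CPM in WT and 3069, 1592 and 2129 CPM in KO replicates 1, 2 and 3, and that of the 15 enzymes was 5662 to 6638 CPM in WT and 11980, 12253 and 15490 CPM in KO. KO replicate 1 also had the lowest Actb and the highest Fabp4-led adipocyte sum, given above. Whether these go together was not tested, and replicates of a group have no order.

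**Figure D4:**
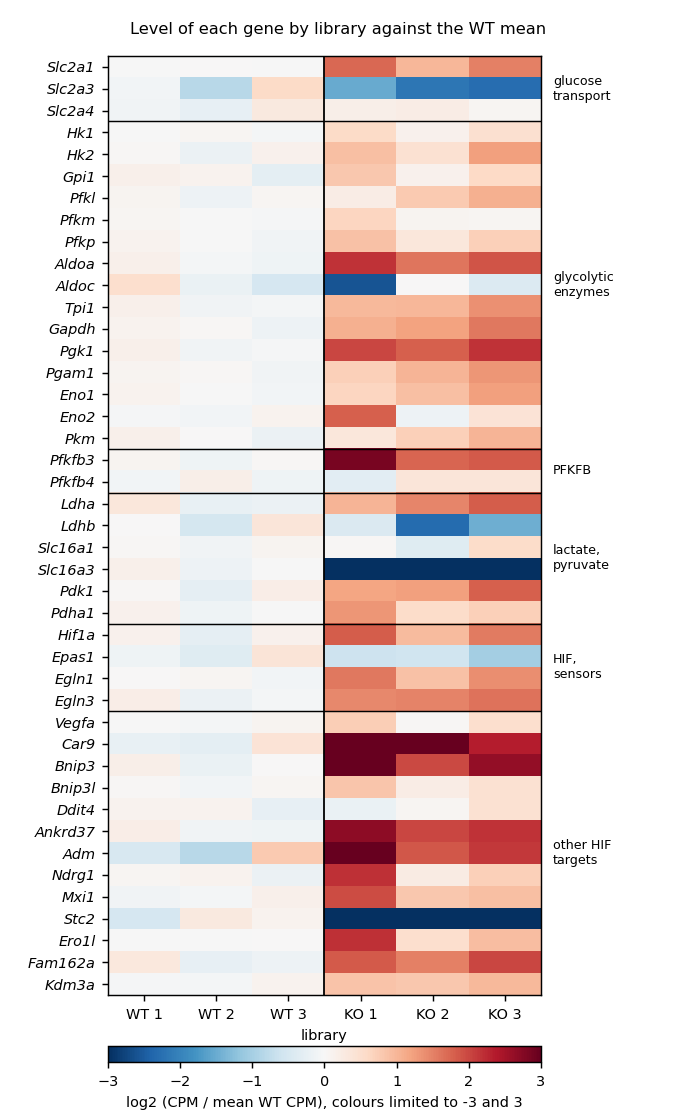
Level of 43 genes in each of the 6 libraries as log2 of CPM over the mean of the WT libraries, with colours limited to -3 and 3 and lines between the roles (Stc1 is left out because its WT mean is 0). KO replicate 1 is the darkest red for Adm, Ndrg1, Ero1l and Eno2 and paler than KO replicates 2 and 3 for Ldha, Pkm and Pfkl.

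Of all tested genes 13.8% rose and 14.5% fell, and nothing is read from the list counts in this and the next paragraph. In the pentose phosphate pathway, which makes NADPH and ribose, 0 of 8 genes rose, 1 fell and 7 were not called. The one that fell was Rpia, for ribose-5-phosphate isomerase (-0.88 log2, adjusted p = 0.00243). Of 18 genes of the tricarboxylic acid cycle 4 rose, 0 fell and 14 were not called, among them Idh2 (0.72 log2, adjusted p = 0.00988), Mdh1 (0.73, 0.0109) and Suclg2 (0.53, 0.0137). Without WT replicate 2 none of the 4 was called (0.0577, 0.0595 and 0.0778 for the 3 named), and Suclg2 was also lost with library totals (0.0604) and without WT replicate 3 or KO replicate 3 (0.0514 and 0.0512). Whether these lists differ from the glycolytic enzymes was not tested. Of 11 genes of glycogen and gluconeogenesis 8 were tested, of which 3 rose and 1 fell. The mitochondrial enzyme Pck2 fell by 1.09 log2 (adjusted p = 0.000345), while Ugp2, which makes UDP-glucose, rose by 0.93 (adjusted p = 0.00162) and the phosphatase G6pc3 by 1.20 (adjusted p = 0.00252).

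Of 10 genes of glucose sensing and other transporters 4 fell, 0 rose and 6 were not called. Slc2a12, for GLUT12, was counted 153, 106 and 252 times in WT libraries and 0, 0 and 1 times in KO libraries, so that WT over KO was 532 (95% interval 95.1 to 21060, exact binomial, counting error only). Mlxipl, for the glucose-sensing factor ChREBP, went from 125 to 4 counts (-4.89 log2, adjusted p = 0.000381). Slc2a6, a lysosomal hexose transporter, fell by 0.80 log2 (adjusted p = 0.0159), a call lost without WT replicate 1 or 2 (0.0537 and 0.0774). Of the 8 glucose transporter genes tested in both lists, Slc2a1 was the one that rose. Of 16 other glycolytic isozymes and relatives, mostly forms of liver, muscle and testis, 10 were tested, of which 2 rose and 1 fell. Slc16a7, given above, was among those that rose, and Tigar, which lowers fructose 2,6-bisphosphate, was the one that fell (-0.90 log2, adjusted p = 0.0154). Tigar lost its call without WT replicate 1 or 3 (0.0517 and 0.0627).

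In a list of 33 HIF targets outside the 44 genes 22 rose, 1 fell and 10 were not called, with a median of 0.79 log2. The background shares are those given above, and this list too was drawn up with earlier results known. Plod2, a collagen lysyl hydroxylase, rose by 1.26 log2 (adjusted p = 0.000616). Higd1a, a mitochondrial protein of the hypoxic response, rose by 1.63 log2 (adjusted p = 0.000774). The list's 1 gene that fell was Angptl4, whose secreted product blocks lipoprotein lipase (-8.66 log2, adjusted p = 3.23e-05), at 100 ± 17.1 CPM in WT and 0.229 ± 0.168 CPM in KO. Leaving out WT replicate 1 left 13 genes higher, and leaving out WT replicate 2 left 11. Lower genes numbered 3 without KO replicate 1 or with library totals, and 2 without KO replicate 3, with no filter, with DESeq2 or with limma-voom.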

How the data were processed

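The 6 libraries of total RNA from differentiating MEFs (TruSeq RNA Library Prep Kit v2, which does not mark strand) comprised 3 per genotype, grouped by their titles. The authors deposited raw read counts per Ensembl gene, 1 file per library. TopHat2 2.1.0, HTSeq, DESeq2 and GRCm38.p4 are named in the submitters' processing notes; the sources used here do not give the annotation release or the strand setting. Of 46603 identifiers 46091 matched GENCODE M21 (GRCm38), which gave symbols, positions and exon lengths.

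Counts were filtered with filterByExpr, scaled with TMM and tested with edgeR 4.0.16 in R 4.3.3 (quasi-likelihood F test, group as the only term, two-sided, Benjamini-Hochberg over all 15009 tested genes, threshold 0.05). The test was checked on simulated counts with known changes, where the share of false calls came out above the nominal threshold. CPM use TMM-scaled totals, values after ± are SD (n = 3), and the SE, from log2 CPM with a prior count of 2, belongs to the KO minus WT difference of group means. A count of 3 is 0.0777 to 0.111 CPM by library. Near-identical copies were searched among GENCODE transcripts (at least 100 bases, 97% identity).

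The genes and lists were chosen with earlier results of these data known. All 44 genes are named, and from each other list the 3 changed genes of lowest p and 1 of the opposite direction, of which 1 is not reported here. Other settings tried were scaling by RLE, by the upper quartile or by library totals, the 10 most abundant genes left out, no filter, a CPM of at least 1 in 3 libraries, DESeq2 1.42.0, limma-voom (limma 3.58.1), the replicate number as a block, and each library left out in turn.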

Additional observations from a re-analysis of the deposited data

How the results depend on the processing

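Of the 32 genes called among the 44, 21 kept their call in all of the 15 alternatives that tested them, and no called gene changed sign. The number of changed genes among all tested ran from 2298 to 6537 when a library was left out, lowest without WT replicate 2 (2643 and 2825 without WT replicates 1 and 3) and highest without KO replicate 1, against 4255. Glycolysis genes lower in KO numbered 2, and 1 to 3 when a library was left out and 1 with the CPM filter, where Slc2a3 was not tested. HIF genes lower in KO numbered 2, and 1 to 2 when a library was left out, 1 with limma-voom and 1 with the replicate block. Glycolysis genes higher in KO ran from 10 to 16 and HIF genes higher from 9 to 15, against 15 and 13, over all alternatives. A fit that leaves out a library has fewer libraries, and the group with 2 is then assumed to vary like the other.

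Equally numbered KO and WT libraries did not deviate together (correlations of deviations -0.101, 0.0460 and -0.148), so the numbers were not taken as pairs; with the replicate block 3045 genes changed, 13 glycolysis genes and 11 HIF genes rose, and 3 and 1 fell. The block ended the calls of Pfkl, Pkm, Bnip3l, Epas1 and Ero1l (adjusted p = 0.0646, 0.0902, 0.066, 0.119 and 0.0559) and of Pdhx (0.0712), and Ldhb was called (-1.36 log2, 0.0277). Smaller lists moved by over 1.5 times, over all alternatives, as follows: transporters lower 0 to 1 (1), PFKFB higher 1 to 2 (1), lactate and pyruvate handling lower 1 to 2 (1), HIF factors and sensors lower 0 to 1 (1), enzymes higher 6 to 11 (main 10), other HIF targets of the 44 higher 6 to 12 (10), HIF targets outside the 44 higher 11 to 25 (22) and lower 1 to 3 (1), HIF machinery higher 1 to 3 (2) and lower 1 to 2 (1), isozymes higher 0 to 4 (2) and lower 0 to 1 (1), pentose phosphate higher 0 to 2 (0) and lower 1 to 3 (1), pyruvate entry lower 0 to 2 (1), tricarboxylic acid cycle higher 0 to 6 (4) and lower 0 to 2 (0), glucose sensing lower 2 to 5 (4), glycogen lower 1 to 2 (1), proliferation higher 0 to 4 (3) and lower 0 to 1 (0).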
